A study of Homo sapiens with 4 samples.

Results

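The cytosolic translation initiation and elongation factors were examined in HCT116 cells, a human colorectal cancer line, after knockdown of NUDT21. Members were the genes whose symbol begins with EIF1 to EIF6, EEF1 or EEF2, without the eIF2 kinases EIF2AK1 to EIF2AK4 and without EIF4EBP1. The rule took 65 of the 20003 genes in the files, 51 of them named EIF and 14 named EEF. RNA sequencing covered 2 libraries with a hairpin against NUDT21 (shNUDT21 1 and shNUDT21 5; genotype NUDT21 knockdown) and 2 with a control hairpin vector (shPLKO 1 and shPLKO 2; genotype WT). All 4 came from the same line, with no further treatment and the same time label, 1, which has no unit. Whether the numbers in the names stand for hairpins or replicates, and whether each library is its own culture, is not labelled. The spread behind the p-values is thus that of the libraries at hand and may be technical.

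Translation starts when the cap-binding complex eIF4F recruits a small ribosomal subunit that carries eIF3 and the initiator tRNA on eIF2. The subunit scans to a start codon, eIF2 releases its GDP and is recharged by eIF2B, and eIF5B joins the large subunit. In elongation, eEF1A delivers each aminoacyl-tRNA, eEF1B recharges eEF1A and eEF2 moves the ribosome along. Many mRNAs of this machinery, like those of ribosomal proteins, begin with a run of pyrimidines, the 5′ terminal oligopyrimidine tract through which their translation is regulated.

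NUDT21, a subunit of the cleavage factor that binds UGUA near the 3′ ends of transcripts, was at 3.96 and 2.999 RPKM in shNUDT21 1 and 5, against 24.3 and 26.9 RPKM in shPLKO 1 and 2. Its log2 fold change on log2(RPKM + 1) was -2.58 (SE 0.162, limma adjusted p 0.0406). All 7 epithelial markers examined were present in every library at 21.9 RPKM or more. They went both ways, with EPCAM, CDH1, CLDN7 and ESRP1 higher in both knockdown libraries than in both controls, and KRT8, KRT18 and KRT19 lower. EPCAM was at 162 and 179.9 RPKM in shNUDT21 1 and 5, against 129.8 and 132 RPKM in shPLKO 1 and 2, and KRT8 was at 1323 and 1454 RPKM in shNUDT21, against 4389 and 4137 RPKM in shPLKO. Of the 8 markers of leukocytes, endothelium and fibroblasts, COL1A1 was at 4.38 and 6.96 RPKM in shNUDT21 and 6.34 and 6.72 RPKM in shPLKO, and the other 7 were at 0.593 RPKM or less, with CD3E at 0 in shNUDT21 1 and shPLKO 2. Reads on all members together made up 3.27% and 2.99% of the reads in shNUDT21 1 and 5, against 3.05% and 3.04% in shPLKO 1 and 2. In bulk RNA, fewer cells of a type and less RNA per cell cannot be told apart.

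Of the 65 members, 61 reached a mean of 1 RPKM and were tested, and 3 passed the limma test, against 5.82% of the 11124 genes tested. EIF3G was lower in shNUDT21, while EIF2A and EIF3J were higher. Over all genes tested, 2.61% were called higher and 3.21% were called lower, so the members' share was near that of all genes. The median log2 fold change was -0.016 over the members and -0.0027 over all genes tested. In all, 29 members had a positive value and 32 a negative one. An unadjusted p under 0.05 was found for 19 members, against 33.9% of all genes tested. The groups did not overlap for 42 members, 19 higher and 23 lower, against 66.2% of all genes tested (32.8% higher and 33.4% lower).

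**Figure D1:**
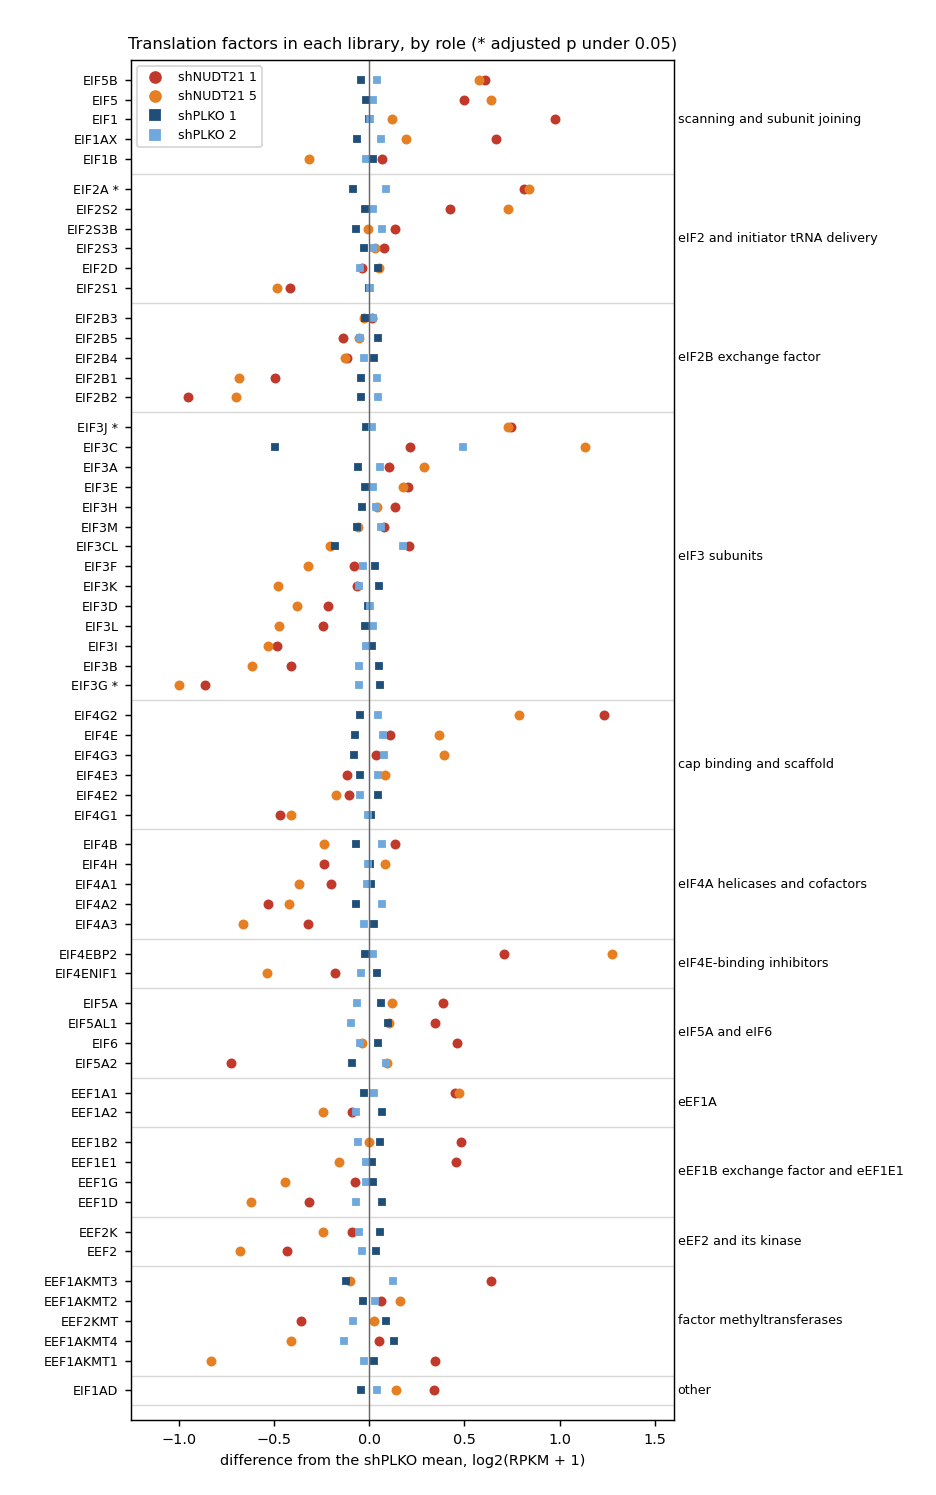
Difference of each library from the shPLKO mean, on log2(RPKM + 1), for the 61 tested members grouped by role (circles, shNUDT21 1 and 5; squares, shPLKO 1 and 2). Asterisks mark the 3 members with a limma adjusted p under 0.05: EIF2A and EIF3J lie to the right and EIF3G to the left.

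**Figure D2:**
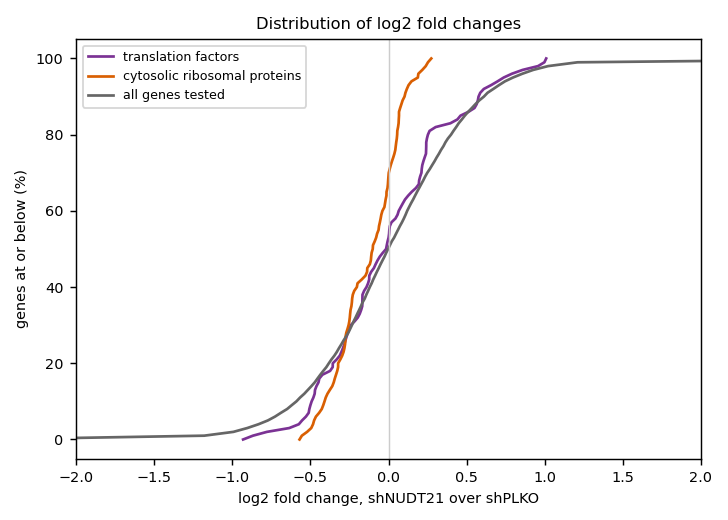
Share of genes (vertical axis, percent) at or below each log2 fold change of shNUDT21 over shPLKO (horizontal axis) for the translation factors, the cytosolic ribosomal proteins and all genes tested. The curve of the translation factors crosses the middle at -0.016, beside -0.10 for the ribosomal proteins and -0.0027 for all genes.

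EIF3G encodes a subunit of eIF3, the large complex that binds the small ribosomal subunit. Its level was 114 and 103 RPKM in shNUDT21 1 and 5, against 216 and 200.1 RPKM in shPLKO 1 and 2. Both knockdown libraries were close to one another and well under both controls, at a ratio of 0.522 (log2 fold change -0.93, SE 0.139, adjusted p 0.0431). EIF2A encodes a single-chain factor, distinct from eIF2, that can bring initiator tRNA to the ribosome. It stood at 24.7 and 25.1 RPKM in shNUDT21 1 and 5, against 12.8 and 14.5 RPKM in shPLKO 1 and 2. The ratio was 1.82, with knockdown libraries that differed from one another less than the controls did (log2 fold change 0.83, SE 0.131, adjusted p 0.0452). EIF3J encodes a loosely bound eIF3 subunit. It was at 29.9 and 29.7 RPKM in shNUDT21 1 and 5, against 17.3 and 17.7 RPKM in shPLKO 1 and 2. Its groups were far apart relative to the gap within either, at a ratio of 1.71 (log2 fold change 0.74, SE 0.119, adjusted p 0.0457).

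These 3 calls lay close to the threshold. After removal of a trend of GC content and length, the log2 fold changes were -0.67 for EIF3G, 0.52 for EIF2A and 0.54 for EIF3J, with adjusted p of 0.0574, 0.0766 and 0.0717, and 0 members were called (16 at an unadjusted p under 0.05, limma), against 1.83% of all genes tested. Without shPLKO 1, 0 members were called, with 4 at an unadjusted p under 0.05 (limma), against 0.00899% of all genes tested. Without shPLKO 2, 0 were called, with 5 at an unadjusted p under 0.05 (limma), against 0% of all genes tested. In the annotation, exons of EIF3G overlap P2RY11 by 113 bases, those of EIF2A overlap SERP1 by 153 bases and those of EIF3J overlap SPG11 by 187 bases. Each of these neighbours lies on the opposite strand, and whether counting used strand is not given in the sources used here.

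Transcripts of all 3 called members hold the cleavage factor's core motif, written TGTA in DNA, within the last 100 bases before the annotated end. The windows of 30 bases around the copy farthest from the end are shown because this is the motif NUDT21 is known to bind. They are from GENCODE release 29 on GRCh38, 5′ to 3′ on the gene's strand, with TGTA in capitals.
EIF3G chr19:10115083-10115112 minus strand: ccagctgccactgTGTActcggtccgggac
EIF2A chr3:150584179-150584208 plus strand: tgtcattttttttTGTAgagggtgatatat
EIF3J chr15:44562735-44562764 plus strand: taacaaatgaaaaTGTAtcacctgttcctt
The motif begins 83 bases before the annotated end in EIF3G, 51 in EIF2A and 56 in EIF3J. TGTA was searched on the transcript strand only. It occurred in this window in 37 of 65 members (56.9%), in 50.8% of the 19123 genes with a transcript and in 53.8% of the genes tested. The median log2 fold change was -0.11 over the 36 tested members with the motif and 0.053 over the 25 without. The same medians were not taken over all genes, and the difference was not tested. A match in these letters is a description of the sequence and not a site of binding.

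**Figure D3:**
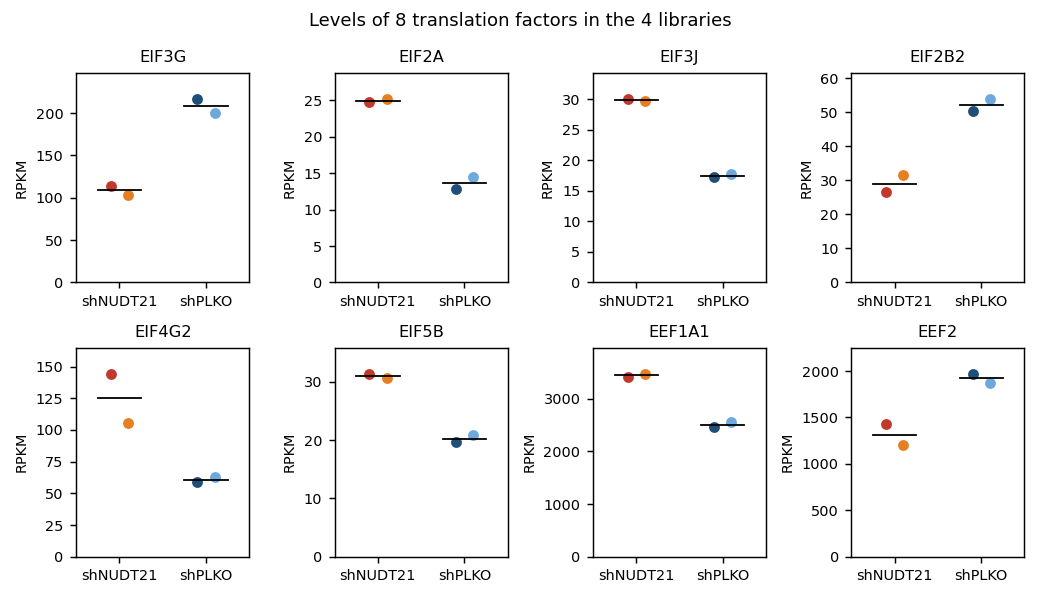
RPKM of 8 translation factors in each library (points; the bar is the group mean, n = 2), with shNUDT21 to the left of shPLKO in each panel and vertical axes that start at 0. The knockdown points of EIF3G, EIF2B2 and EEF2 lie under both controls, and those of EIF2A, EIF3J, EIF4G2, EIF5B and EEF1A1 lie above both.

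Among the other factors that carry or act with initiator tRNA, the 3 subunits of eIF2 itself had unlike values. EIF2S1, the alpha subunit that stress kinases phosphorylate, had a ratio of 0.727 (adjusted p 0.0837). EIF2S2, the beta subunit, had a ratio of 1.51 (adjusted p 0.084). EIF2S3, the gamma subunit that binds tRNA and GTP, had a ratio of 1.04, and its near-copy EIF2S3B had a ratio of 1.07. None of these passed the test. EIF2D, which can deliver tRNA and act in ribosome recycling, had a ratio of 1.00. In this group of 6, 5 members had a positive log2 fold change, 4 under median scaling, where EIF2D had a negative one, and 3 after removal of the GC and length trend.

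All 5 subunits of eIF2B, the complex that reloads eIF2 with GTP, had a negative log2 fold change over all 4 libraries, except EIF2B4 after removal of the GC and length trend. None passed the test. The value of EIF2B3 was near none (-0.0083, SE 0.12), with shNUDT21 1 above the shPLKO mean (0.012) and shNUDT21 5 below it (-0.029). The groups did not overlap for 4 of them, all lower in shNUDT21, against 33.4% of all genes tested. EIF2B2, the beta subunit, was at 26.5 and 31.7 RPKM in shNUDT21 1 and 5, against 50.5 and 53.8 RPKM in shPLKO 1 and 2. Its ratio was 0.557 (log2 fold change -0.83, SE 0.147, adjusted p 0.0505), and exons of an unnamed gene on the opposite strand overlap it by 1098 bases. Under median scaling and with voom on recovered reads its adjusted p was 0.0448 and 0.0492, and under the other settings that keep all 4 libraries it was between 0.0509 and 0.101. EIF2B1, the alpha subunit, was at 17.9 and 15.6 RPKM in shNUDT21 1 and 5, against 24.9 and 26.4 RPKM in shPLKO 1 and 2. The ratio was 0.653 (log2 fold change -0.59, SE 0.136, adjusted p 0.0659). The remaining subunits had higher ratios, of 0.994 for EIF2B3, 0.915 for EIF2B4 and 0.934 for EIF2B5. EIF2B4 is known as a regulatory subunit like EIF2B1 and EIF2B2, while EIF2B3 and EIF2B5 form the catalytic subcomplex.

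Factors of scanning and subunit joining had positive log2 fold changes in 4 of 5 tested members, also under each scaling, and none passed the test. EIF5B, the GTPase that joins the subunits, was at 31.4 and 30.7 RPKM in shNUDT21 1 and 5, against 19.6 and 20.9 RPKM in shPLKO 1 and 2 (ratio 1.53, log2 fold change 0.59, SE 0.122, adjusted p 0.0572). EIF5, which stimulates GTP hydrolysis by eIF2, had a ratio of 1.51 (adjusted p 0.0628), and EIF1AX, which helps scanning, had a ratio of 1.39 (adjusted p 0.204). EIF1, the gatekeeper of start codon choice, was at 951 and 525 RPKM in shNUDT21 1 and 5, against 483 and 485 RPKM in shPLKO 1 and 2. Its log2 fold change of 0.55 (SE 0.311, adjusted p 0.281) rested on shNUDT21 1, since it was 0.12 without that library. EIF1B, its paralog, was at 80.4 and 61.3 RPKM in shNUDT21 1 and 5, against 77.6 and 75.6 RPKM in shPLKO 1 and 2 (log2 fold change -0.12, SE 0.175, adjusted p 0.643). After removal of the GC and length trend, the log2 fold changes of this group were smaller for EIF5B (0.29), EIF5 (0.25, against 0.57 without removal) and EIF1AX (0.18, against 0.43). The ratio of EIF1B to EIF1 was 0.0845 and 0.117 in shNUDT21 1 and 5, against 0.161 and 0.156 in shPLKO 1 and 2.

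The 14 genes of eIF3 were split evenly, with 7 positive and 7 negative log2 fold changes and 1 call in each direction (5 positive under median scaling and 6 after removal of the GC and length trend). Beside EIF3G, the groups did not overlap for EIF3B, EIF3I, EIF3D, EIF3F, EIF3K and EIF3L, with both shNUDT21 libraries below both controls. For EIF3A, EIF3E, EIF3H and EIF3J, both shNUDT21 libraries were above both controls. The groups were thus apart for 7 of 14 genes as lower and 4 as higher, against 33.4% and 32.8% of all genes tested. EIF3B, a core scaffold subunit, was at 92.0 and 79.5 RPKM in shNUDT21 1 and 5, against 127 and 118 RPKM in shPLKO 1 and 2. Its ratio was 0.70 (log2 fold change -0.51, SE 0.145, adjusted p 0.0897). EIF3I had a ratio of 0.703 (adjusted p 0.0769). EIF3B, EIF3G and EIF3I, the 3 subunits of this set with the lowest ratios, are known to bind one another as a module of the complex together with EIF3A. EIF3A, the largest subunit, had a ratio of 1.15 (adjusted p 0.372).

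The other 4 subunits with lower values, EIF3D, EIF3F, EIF3K and EIF3L, had ratios between 0.782 and 0.872. EIF3E and EIF3H had ratios of 1.14 and 1.06, and EIF3M had 1.01. EIF3C differed within each group, with 12.7 and 24.9 RPKM in shNUDT21 1 and 5, against 7.39 and 15.6 RPKM in shPLKO 1 and 2. Its log2 fold change of 0.67 (SE 0.456, adjusted p 0.352) is uncertain given that spread within both groups, whose cause was not tested. EIF3CL, a near-identical copy that could share its reads, had a ratio of 1.01 at a mean of 1.27 RPKM. The 2 genes together also differed within each group, at 14.3 and 25.8 RPKM in shNUDT21 1 and 5, against 8.37 and 17.2 RPKM in shPLKO 1 and 2. All subunits but EIF3A, EIF3C, EIF3J and EIF3CL stood between 79.5 and 319 RPKM, and these 4 were at 67.9 RPKM or less in every library.

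**Figure D4:**
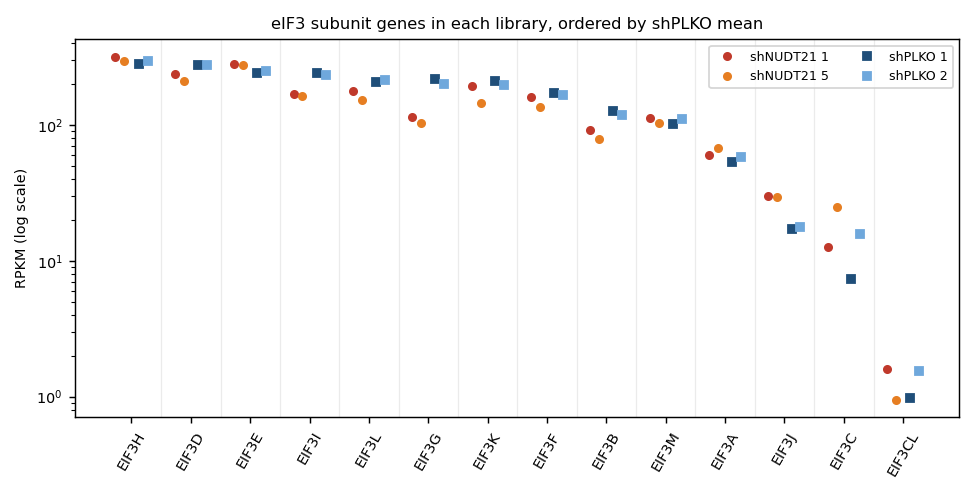
RPKM on a log scale (vertical axis) of the 14 eIF3 genes in each library (circles, shNUDT21 1 and 5; squares, shPLKO 1 and 2), ordered by the shPLKO mean. EIF3G, at 114 and 103 RPKM in shNUDT21 against 216 and 200.1 RPKM in shPLKO, is separated most among the abundant subunits, and EIF3C varies within both groups.

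At the cap, the scaffolds that tie the cap-binding protein to the ribosome had values of both signs. EIF4G2, a scaffold of the eIF4G family that lacks the eIF4E-binding part and serves cap-independent initiation, was at 144 and 105 RPKM in shNUDT21 1 and 5, against 58.8 and 62.9 RPKM in shPLKO 1 and 2. Both knockdown libraries were above both controls, at a ratio of 2.05, the highest positive log2 fold change of the 61 members (1.01, SE 0.194). Its adjusted p was 0.0532. Under the other settings that keep all 4 libraries it was between 0.0461, with TMM scaling, and 0.132, with no filter on low values, and only the first was under 0.05. EIF4G1, the principal scaffold, was at 91.6 and 95.4 RPKM in shNUDT21 1 and 5, against 128 and 126 RPKM in shPLKO 1 and 2. Its ratio was 0.735 (log2 fold change -0.44, SE 0.125, adjusted p 0.0906). EIF4G3, the other canonical scaffold, was at 7.89 and 10.4 RPKM in shNUDT21 1 and 5, against 7.22 and 8.16 RPKM in shPLKO 1 and 2 (log2 fold change 0.21, SE 0.174, adjusted p 0.428). The ratio of EIF4G3 to EIF4G1 was 0.0862 and 0.109 in shNUDT21 1 and 5, against 0.0565 and 0.0645 in shPLKO 1 and 2, with no overlap. No test was run on it. With the GC and length trend removed, the log2 fold changes of EIF4G3 and EIF4G1 were -0.036 and -0.27, closer to one another than before.

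The cap-binding proteins differed little between groups. EIF4E, the main one, was at 7.77 and 9.49 RPKM in shNUDT21 1 and 5, against 6.73 and 7.54 RPKM in shPLKO 1 and 2 (log2 fold change 0.24, SE 0.152, adjusted p 0.325). Its gene model in the files is 12096 bases long, which bears on its level per kilobase. EIF4E2, a cap-binding homolog that acts in repression, was at 22.8 and 21.7 RPKM in shNUDT21 1 and 5, against 25.5 and 23.8 RPKM in shPLKO 1 and 2 (log2 fold change -0.14, SE 0.124, adjusted p 0.461). EIF4E3 was at 2.75 and 3.31 RPKM in shNUDT21 1 and 5, against 2.94 and 3.19 RPKM in shPLKO 1 and 2 (log2 fold change -0.016, SE 0.137, adjusted p 0.944). Relative to EIF4E, EIF4E2 stood at 2.94 and 2.29 in shNUDT21 1 and 5, against 3.79 and 3.16 in shPLKO 1 and 2, and EIF4E3 stood at 0.354 and 0.349 in shNUDT21, against 0.436 and 0.424 in shPLKO.

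EIF4EBP2, an inhibitor that holds eIF4E until mTOR phosphorylates it, was at 21.2 and 32.0 RPKM in shNUDT21 1 and 5, against 12.4 and 12.8 RPKM in shPLKO 1 and 2. Both knockdown libraries were above the controls and differed from one another (ratio 2.11, log2 fold change 0.99, SE 0.22, adjusted p 0.0623). EIF4ENIF1, which carries eIF4E into the nucleus, had a ratio of 0.728 (adjusted p 0.204).

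All 5 members of the eIF4A group, the helicases that unwind leader sequences and their cofactors, had negative log2 fold changes, except EIF4H after removal of the GC and length trend, and none passed the test. EIF4A1, the abundant helicase, was at 459 and 409 RPKM in shNUDT21 1 and 5, against 531 and 524 RPKM in shPLKO 1 and 2 (ratio 0.823, log2 fold change -0.28, SE 0.147, adjusted p 0.244). EIF4A2, its paralog, was at 230.2 and 249 RPKM in shNUDT21 1 and 5, against 317 and 349 RPKM in shPLKO 1 and 2 (ratio 0.719, log2 fold change -0.47, SE 0.143, adjusted p 0.0991). EIF4A3, a core part of the exon junction complex rather than of eIF4F, had a ratio of 0.714 (adjusted p 0.122). The cofactors EIF4B and EIF4H had ratios of 0.972 and 0.955, with overlapping groups and no stable sign. On the log2 scale, EIF4B was 0.13 from the shPLKO mean in shNUDT21 1 and -0.24 in shNUDT21 5. EIF4H was at -0.24 and 0.084. The ratio of EIF4A2 to EIF4A1 was 0.501 and 0.608 in shNUDT21 1 and 5, against 0.597 and 0.666 in shPLKO 1 and 2, so the groups overlapped. EIF4A1 has 13 annotated processed pseudogenes, which could take or give reads.

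EIF5A, the hypusine-bearing factor that helps stalled ribosomes, was at 224 and 186 RPKM in shNUDT21 1 and 5, against 179 and 164 RPKM in shPLKO 1 and 2 (ratio 1.20, log2 fold change 0.25, SE 0.16, adjusted p 0.324). Its copy EIF5AL1 had a ratio of 1.20 as well, at a mean of 7.63 RPKM over the 4 libraries, and could share reads with it. EIF5A2, the second isoform, was at 2.35 and 4.90 RPKM in shNUDT21 1 and 5, against 4.20 and 4.88 RPKM in shPLKO 1 and 2 (log2 fold change -0.32, SE 0.297, adjusted p 0.49). The ratio of EIF5A2 to EIF5A was 0.0105 and 0.0264 in shNUDT21 1 and 5, against 0.0235 and 0.0298 in shPLKO 1 and 2. EIF6, which keeps large subunits from joining early, had a ratio of 1.18 with overlapping groups.

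Of the elongation factors, 0 of the 13 tested members named EEF were called, against 5.82% of all genes tested. An unadjusted p under 0.05 was found for 3 of them (limma), against 33.9% of all genes tested. EEF1A1, the main carrier of aminoacyl-tRNA, had the highest level of all members. It was at 3419 and 3474 RPKM in shNUDT21 1 and 5, against 2456 and 2552 RPKM in shPLKO 1 and 2. The ratio was 1.38, and the groups were separated by more than the gap within either (log2 fold change 0.46, SE 0.16, adjusted p 0.125). EEF1A1 alone took 1.20% and 1.22% of the reads in shNUDT21 1 and 5, against 0.863% and 0.896% in shPLKO 1 and 2. The annotation holds 37 processed pseudogenes of EEF1A1, so its count depends on how reads with several matches were treated.

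EEF1A2, the paralog that replaces EEF1A1 in neurons and muscle, was at 264 and 237 RPKM in shNUDT21 1 and 5, against 295 and 268 RPKM in shPLKO 1 and 2 (log2 fold change -0.17, SE 0.146, adjusted p 0.461). The ratio of EEF1A2 to EEF1A1 was 0.0771 and 0.0684 in shNUDT21 1 and 5, against 0.12 and 0.105 in shPLKO 1 and 2. Both knockdown libraries were thus below both controls in this ratio, for which no test was run. The GC contents of EEF1A2 and EEF1A1 are 66.4% and 46.1%. With the GC and length trend removed, their log2 fold changes were 0.076 and 0.35, closer to one another than before.

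EEF2, the translocase, was at 1424 and 1202 RPKM in shNUDT21 1 and 5, against 1971 and 1873 RPKM in shPLKO 1 and 2. It had the opposite sign to EEF1A1 (ratio 0.683, log2 fold change -0.55, SE 0.172, adjusted p 0.103). Its inhibitory kinase EEF2K had a ratio of 0.875 at a mean of 6.53 RPKM.

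The eEF1B subunits that recharge eEF1A also had unlike values. EEF1B2, the catalytic subunit, was at 685 and 489.8 RPKM in shNUDT21 1 and 5, against 510 and 471 RPKM in shPLKO 1 and 2 (log2 fold change 0.24, SE 0.212, adjusted p 0.462). EEF1G, a structural subunit, was at 1644 and 1271 RPKM in shNUDT21 1 and 5, against 1752 and 1707 RPKM in shPLKO 1 and 2 (log2 fold change -0.26, SE 0.193, adjusted p 0.394). EEF1D, the second exchange subunit, was at 53.5 and 43.1 RPKM in shNUDT21 1 and 5, against 70.3 and 63.7 RPKM in shPLKO 1 and 2 (ratio 0.721, log2 fold change -0.47, SE 0.163, adjusted p 0.123). EEF1E1, which scaffolds aminoacyl-tRNA synthetases, had a ratio of 1.14 with overlapping groups.

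The enzymes that methylate elongation factors were at low levels. EEF1AKMT3 was at 3.33 and 1.59 RPKM in shNUDT21 1 and 5, against 1.55 and 2.02 RPKM in shPLKO 1 and 2 (log2 fold change 0.27, SE 0.28, adjusted p 0.532). EEF1AKMT1, EEF1AKMT2, EEF1AKMT4 and EEF2KMT had ratios between 0.863 and 1.09. EIF1AD, whose product has a domain like that of eIF1A, was at 17.1 and 14.8 RPKM in shNUDT21 1 and 5, against 12.9 and 13.7 RPKM in shPLKO 1 and 2 (log2 fold change 0.24, SE 0.137, adjusted p 0.281).

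The 4 members below the mean of 1 RPKM were EIF1AY, EIF4E1B, EIF4EBP3 and the read-through gene EEF1AKMT4-ECE2. EIF4E1B, a germline relative of EIF4E, had 4 and 5 reads in shNUDT21 1 and 5, against 15 and 13 reads in shPLKO 1 and 2, with 95% Poisson intervals that overlap. EIF4EBP3 had 3 and 2 reads in shNUDT21 1 and 5, against 0 and 1 read in shPLKO 1 and 2, with 95% Poisson intervals that overlap. EEF1AKMT4-ECE2 had 0 reads in every library, which allows up to 3.69 reads in each.

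The annotated starts of 7 members are shown as examples of the pyrimidine tract described for this machinery, from the elongation factors, the eIF4A group and the called EIF2A. Each line gives 10 bases before and 20 bases from the RefSeq start on GRCh38.p14, 5′ to 3′ on the gene's strand. Capitals mark the run of C or T that begins at the start with C. EEF1G is shown as a member without such a run at the annotated start.
EEF1A1 chr6:73521013-73521042 minus strand: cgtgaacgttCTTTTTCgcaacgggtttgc
EEF2 chr19:3985444-3985473 minus strand: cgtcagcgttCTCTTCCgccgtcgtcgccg
EEF1B2 chr2:206159885-206159914 plus strand: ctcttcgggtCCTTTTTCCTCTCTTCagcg
EIF4B chr12:53006446-53006475 plus strand: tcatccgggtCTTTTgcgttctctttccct
EIF4A2 chr3:186783567-186783596 plus strand: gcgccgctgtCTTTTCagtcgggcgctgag
EIF2A chr3:150546777-150546806 plus strand: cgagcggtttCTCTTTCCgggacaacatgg
EEF1G chr11:62573872-62573901 minus strand: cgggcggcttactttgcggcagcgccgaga
A run of at least 5 bases was found at the start of 13 of the 53 members with a RefSeq start (24.5%). The same held for 6.36% of the 14994 genes with a RefSeq start and for 69.6% of the 69 ribosomal protein genes with one. Where a gene had several starts, the one with the longest run was taken.

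The 13 members with a pyrimidine start were EEF1A1, EEF1B2, EEF2, EIF2A, EIF2D, EIF2S3, EIF2S3B, EIF3D, EIF3F, EIF3K, EIF3M, EIF4A2 and EIF4B. They had 7 positive and 6 negative log2 fold changes, with a median of 0.005. For the 36 tested members without such a start the median was -0.046, and for the 676 tested genes with one it was -0.021. Values of the 13 ran from -0.55 for EEF2 to 0.83 for EIF2A. The cytosolic ribosomal proteins, whose mRNAs share this tract, had a median of -0.10 over 81 tested genes, with 56 negative log2 fold changes. Over the 81, 0 were called and 4 had an unadjusted p under 0.05 (limma), against 5.82% and 33.9% of all genes tested. The groups did not overlap for 26 of the 81, all lower in shNUDT21. Over all genes tested, 33.4% did not overlap as lower and 32.8% as higher.

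The 2 knockdown libraries differed from one another more than the controls did. The gap between shNUDT21 1 and 5 on log2(RPKM + 1) was wider than that between shPLKO 1 and 2 for 49 of 61 members (80.3%) and for 82.7% of all genes tested. The median gap over the members was 0.229 in shNUDT21 and 0.0901 in shPLKO, and over all genes tested it was 0.28 in shNUDT21 and 0.0768 in shPLKO. Members were higher in shNUDT21 1 than in shNUDT21 5 in 42 of 61 cases, with a median difference of 0.14. For members named EEF this was 10 of 13, with a median difference of 0.30. All 81 tested ribosomal protein genes were higher in shNUDT21 1 than in shNUDT21 5, with a median difference of 0.40, against 55.3% of all genes tested with a median difference of 0.051. Among tested members with a pyrimidine start, shNUDT21 1 was above shNUDT21 5 in 9 of 13, and among those without in 24 of 36. As examples, EEF1B2, EEF1G and EEF2 had the order of the ribosomal proteins, while EEF1A1 and EIF4A2 had the other order. Each is a comparison of single libraries and has no replicate check.

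The log2 fold change of the members moved with the base composition of their transcripts. Over the 61 tested members, Pearson's r between log2 fold change and GC content was -0.411 and Spearman's rho was -0.408, and over the 11038 tested genes with both values they were -0.366 and -0.40. These are correlations across genes of the same 4 libraries, and genes are not independent replicates. Of the 22 members under 45% GC, 17 had a positive log2 fold change, while of the 20 members at 52% GC or more, 15 had a negative one. Their medians were 0.17 and -0.17, beside 0.25 and -0.19 for all genes in the same bands, which were chosen after the values were seen. EIF3G has 60.3% GC, EIF2A 39.7% and EIF3J 38.8%. EIF2B2 at 45.8%, EIF2S1 at 39.2% and EIF4A2 at 40.7% had negative values although their GC content was below the median of all genes, 50.3%, and after the trend was removed theirs were -0.80, -0.72 and -0.58. These GC contents are of an annotated transcript, 4314 bases long for EIF2B2 and 2198 for EIF2A. Their gene models, on which reads were counted, have 1541 and 4833 bases, so the GC content of the counted sequence may differ. With the trend removed, 12 of the 61 members changed sign, with log2 fold changes of at most 0.24 in size before removal. Another 26 kept their sign and moved by over 1.5 times, 18 of them closer to 0. Of the log2 fold changes given above, those of EEF2 (-0.36), EEF1D (-0.30), EEF1G (-0.042), EIF4G1 (-0.27), EIF4E2 (-0.038) and EIF4A1 (-0.19) were then more than 1.5 times smaller in size. Those of EIF2S1, EIF5A (0.42), EIF5A2 (-0.59) and EIF4E3 (-0.38) were more than 1.5 times larger. The part of base composition in these changes was not tested beyond that removal.

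**Figure D5:**
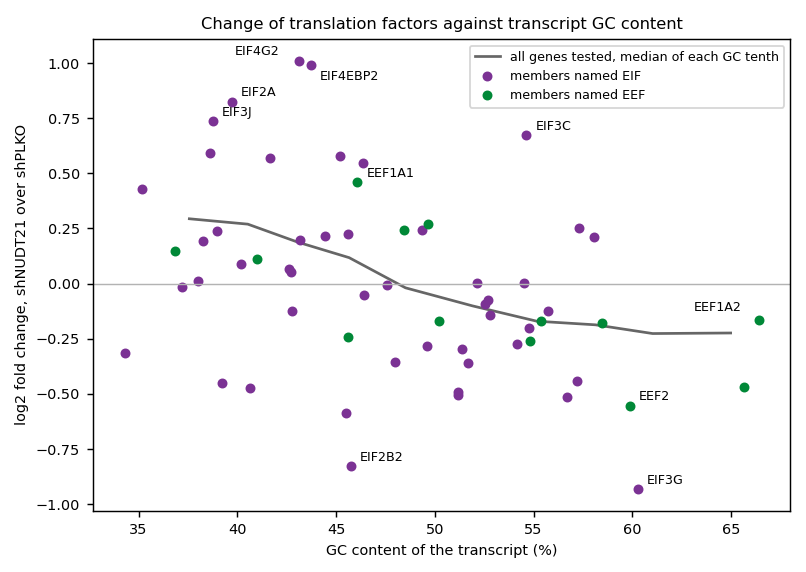
Log2 fold change of shNUDT21 over shPLKO (vertical axis) against the GC content of the annotated transcript in percent (horizontal axis) for the 61 tested members. The line joins the medians of all genes tested in 10 bins of near-equal gene number, ordered by GC content. Members under 45% GC lie mostly above 0 and those at 52% GC or more mostly below, along the line of all genes.

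Genes that act on these factors but are not of their families were taken from 6 related lists of 64 genes, 61 of them tested. Of these, 3 passed the test, against 5.82% of all genes tested, so the share was near that of all genes. All 3 were higher in shNUDT21 (2.61% of all genes tested), and 30 of the 61 had a negative log2 fold change. PPP1R15A, the phosphatase subunit that removes the phosphate from eIF2 alpha, was at 140.4 and 141 RPKM in shNUDT21 1 and 5, against 42.9 and 42.5 RPKM in shPLKO 1 and 2 (log2 fold change 1.70, SE 0.122, adjusted p 0.0406). EIF2AK3, the kinase PERK that places that phosphate under stress of the endoplasmic reticulum, was at 7.14 and 5.28 RPKM in shNUDT21 1 and 5, against 1.40 and 2.26 RPKM in shPLKO 1 and 2 (ratio 3.40, log2 fold change 1.36, SE 0.222, adjusted p 0.0457). GTPBP2, a GTPase that acts on stalled ribosomes, was at 67.2 and 72.1 RPKM in shNUDT21 1 and 5, against 37.0 and 36.9 RPKM in shPLKO 1 and 2 (ratio 1.88, log2 fold change 0.89, SE 0.124, adjusted p 0.0416). PPP1R15A and GTPBP2 passed after removal of the GC and length trend, with adjusted p of 0.0429 and 0.0496. EIF2AK3 then had an adjusted p of 0.0678, and without either shPLKO library none of the 3 passed.

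The remaining related lists had no call. Among cap-dependent regulators, PAIP1, which binds poly(A)-binding protein, had a ratio of 1.59 (adjusted p 0.0789), and PDCD4, an inhibitor of eIF4A, had a ratio of 1.51 (adjusted p 0.0914). DDX3X, a helicase that helps initiation, had a ratio of 1.54 (adjusted p 0.0622), and MCTS1, which acts in reinitiation, had a ratio of 1.44 (adjusted p 0.102). The release factor GSPT1 had a ratio of 1.38 (adjusted p 0.0898). DHPS, which makes the hypusine of eIF5A, had a ratio of 0.76 (adjusted p 0.106), and DNAJC24, of the diphthamide pathway that modifies eEF2, had a ratio of 0.561 (adjusted p 0.0779). In mitochondria, the elongation GTPase GUF1 had a ratio of 1.57 (adjusted p 0.0762), and the recycling factor GFM2 had a ratio of 0.672 (adjusted p 0.081). After removal of the GC and length trend, the log2 fold change was 0.40 for PAIP1 (0.63 without removal), 0.31 for PDCD4 (0.56), 0.30 for DDX3X (0.61) and 0.16 for MCTS1 (0.43). It was then 0.10 for GSPT1 (0.44), 0.29 for GUF1 (0.57) and -0.15 for DHPS (-0.39).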

How the data were processed

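RNA-seq libraries were made from total RNA of HCT116 cells with a SMARTer mRNA-Seq kit, per the labels' protocols. Bowtie 0.12.2 and hg18 are listed, per the submitters' processing notes, without saying what each was used for. How reads were counted, by strand or not, and what was done with reads of several matches is not given in the sources used here. Values as deposited were read as RPKM, that is reads of a gene divided by its model length and the library's reads, computed by the authors. That unit was inferred from the values, since the file headers name none. Each file held 20030 rows, and 27 rows with a date in place of a symbol were left out.

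Depth was recovered from the steps of the RPKM values, which gave between 29963980 and 30459886 reads per library. A common factor had to be chosen for 950 genes, and hidden factors may remain in others. This concerns the recovered reads, gene model lengths and voom only. Exact Poisson intervals at 95% for low counts hold counting error alone, because reads without molecular identifiers are not independent molecules.

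Log2(RPKM + 1) values were fitted with limma 3.58.1 (R 4.3.3) and its intensity trend. The fit took all 4 libraries, no covariate and the 11124 genes whose mean reached 1 RPKM. The fit was tested on simulated data with the same SD per gene in both groups. That test could not check it under the wider gaps found between the shNUDT21 libraries. It was two-sided, with 2 residual and 2.71 prior degrees of freedom and a Benjamini-Hochberg adjusted p under 0.05 over all genes tested as the threshold. Every adjusted p is from this fit unless another is named. This scale understates the change of low genes, and ratios of mean RPKM stand beside it. The alternatives were a pseudocount of 0.1, no filter, a mean of at least 5 RPKM, no intensity trend, median and TMM scaling, limma-voom on recovered reads, removal of a loess trend of GC content and length (span 0.3), and leaving out each library. Values per library were given for members past the threshold, the 5 with the largest log2 fold change in each direction, the 6 with the highest mean, the lowest p in each role group, and paralog pairs. Of related lists, genes past the threshold and the 2 with the lowest p were named. The members, lists and rules were chosen with earlier results of these data known. GENCODE release 29 (GRCh38) gave transcript ends, GC content, pseudogenes and exon overlaps of at least 50 bases, and RefSeq gave gene starts. The GRCh38 coordinates are those of these annotations, not of the build in the notes. Annotated transcripts and exons need not match the gene models on which reads were counted.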

Additional observations from a re-analysis of the deposited data

How the results depend on the processing

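With 2 libraries a group, calls lay close to the threshold and depended on how the spread was estimated. The number of members called was 3 with a pseudocount of 0.1, with a mean of at least 5 RPKM and with no intensity trend, where 5.29%, 5.73% and 5.46% of all genes were called. It was 4 under median scaling, TMM scaling and voom, against 7.64%, 7.29% and 6.71% of all genes. Without a filter on low values 0 passed (18 at an unadjusted p under 0.05, limma), against 0.085% of all genes, and with the GC content and length trend removed it was 0 (16), against 1.83%. Over the fits that leave out 1 library it ran between 0 and 37. The related lists had 0 calls with no filter (24 at an unadjusted p under 0.05, limma), and between 0 and 44 over the fits without 1 library. Without either shNUDT21 library the spread comes from shPLKO alone, with 1 residual degree of freedom and the lone library assumed to vary like the other group. Then 68.7% and 65.4% of all genes passed, so these counts set no member apart; without shPLKO 1 or shPLKO 2, 0.00899% and 0% of all genes passed.

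The members' median log2 fold change ran between -0.053 and 0.049 without 1 library, and was 0.049 without shNUDT21 5, against a pooled SD of 0.0511 between libraries. With the GC and length trend removed, the log2 fold change changed sign for 12 of the 61 tested members. Among those given with values per library they were EEF1A2 (0.076), EIF4E (-0.10) and EIF4G3 (-0.036), which missed the threshold in both fits. The others were EEF1AKMT2, EEF1AKMT4, EIF2B4, EIF2S3, EIF2S3B, EIF3A, EIF3F, EIF3M and EIF4H. Of the members given with values per library, those that changed sign without 1 library were EEF1AKMT3 (-0.10 to 0.64), EIF4E3 (-0.12 to 0.085), EIF5A2 (-0.72 to 0.093) and EIF1B (-0.32 to 0.068). Other tested members had opposite signs without shNUDT21 5 and without shNUDT21 1. They included EEF1AKMT1 (0.35 and -0.83), EEF1E1 (0.45 and -0.16), EIF6 (0.46 and -0.039), EIF4B (0.13 and -0.24) and EEF2KMT (-0.36 and 0.024). The same held for EEF1AKMT4, EIF2B3, EIF2D, EIF2S3B, EIF3CL, EIF3M and EIF4H. Apart from what each setting changes by construction, the cause was not tested. No paired analysis was possible because the groups share only replicate number 1. Depth differed by at most 1.66% between libraries, and the members under 1 RPKM had too few reads to compare.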
